A study of Mus musculus with 8 samples.

Results

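Zic1, Zic2, Zic4 and Zic5, zinc finger genes of the Zic family, were followed in E11.5 mouse embryos over 4 origins and both FAK genotypes. The members were all probe sets annotated to exactly 1 of these symbols, 8 probe sets in all, among 34945 probe sets that name a single gene; by gene they are 4 of 18193. Other genes of the family were not analysed here. RNA was measured on 8 Affymetrix arrays, 4 from FAK mutants and 4 from controls, called wild type in the series title. FAK is focal adhesion kinase, an enzyme that relays signals from integrins at sites of cell attachment. The mutant and control arrays labelled p75 each came from cranial neural crest cells of dissected head and thorax, sorted for p75 and pooled from 3 embryos. The other 6 arrays came from origins labelled OFT, LM and UM, with 1 mutant and 1 control array each; these letters are not spelled out in the labels. The FAK allele, any Cre driver, the strain and the number of embryos behind the OFT, LM and UM arrays are not given in the sources used here. The embryonic day of those 6 arrays is that of the series title.

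Zic proteins are transcription factors with C2H2 zinc fingers related to those of the Gli factors, which carry hedgehog signals to DNA. In the mouse embryo they mark the dorsal neural tube and the neural crest that leaves it, and also dorsal somites and mesenchyme around the brain and eye. Zic1 and Zic4 act in cerebellar growth, ZIC2 loss in humans causes holoprosencephaly, a failure of the forebrain to divide, and mouse Zic5 is needed for neural tube closure and for facial crest. In the RefSeq gene order Zic1 and Zic4 are neighbours on chromosome 9, with overlapping spans, and Zic5 and Zic2 are neighbours on chromosome 14.

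The windows around the annotated starts of 3 of the 4 genes are shown because neighbouring members were both highest in p75-sorted cells. Each runs from 250 bases before to 50 bases after a RefSeq start (GRCm38.p6), 5′ to 3′ on the gene's own strand. The windows are chr9:91365719-91366018 (minus strand) for Zic1, chr9:91368722-91369021 (plus strand) for Zic4 and chr14:122465609-122465908 (minus strand) for Zic5. Capitals mark matches on either strand to the CCAAT box, the E-box CACGTG, the TATA box letters TATAAA, or GGGTGG, the core of the sites that Gli and Zic proteins bind; these motifs were chosen with the sequences in view.
Zic1: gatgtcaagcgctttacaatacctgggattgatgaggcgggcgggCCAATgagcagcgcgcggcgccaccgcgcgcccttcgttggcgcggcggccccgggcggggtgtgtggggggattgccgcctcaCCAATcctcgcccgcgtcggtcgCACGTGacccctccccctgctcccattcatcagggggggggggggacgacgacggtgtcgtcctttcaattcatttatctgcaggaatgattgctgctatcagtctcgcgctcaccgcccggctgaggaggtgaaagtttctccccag
Zic4: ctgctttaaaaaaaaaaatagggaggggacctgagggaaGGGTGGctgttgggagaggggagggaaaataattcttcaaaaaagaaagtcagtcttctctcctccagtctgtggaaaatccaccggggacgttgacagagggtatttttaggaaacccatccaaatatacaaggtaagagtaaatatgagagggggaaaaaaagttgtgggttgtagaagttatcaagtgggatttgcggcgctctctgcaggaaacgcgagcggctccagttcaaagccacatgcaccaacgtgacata
Zic5: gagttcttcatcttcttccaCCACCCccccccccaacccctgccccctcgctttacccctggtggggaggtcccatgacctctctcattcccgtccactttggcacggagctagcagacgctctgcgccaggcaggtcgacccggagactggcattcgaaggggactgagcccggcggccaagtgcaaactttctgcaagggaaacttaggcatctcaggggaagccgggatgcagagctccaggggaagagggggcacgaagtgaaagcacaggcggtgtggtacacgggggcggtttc
The Zic1 window held CCAAT at 205 and 121 bases before the start and CACGTG at 98 bases before it. The Zic4 window held GGGTGG at 211 bases before its start, and the Zic5 window held the same motif on the opposite strand at 230 bases before its start. No motif was shared by the Zic1 and Zic4 windows, and TATAAA was in none of the 3. Of 32851 such windows in the table, 37.4% held CCAAT, 7.15% CACGTG, 31.5% GGGTGG and 13.6% TATAAA. The Zic1 window was rich in CG dinucleotides, with 31, against 15 for Zic5, 8 for Zic4 and a median of 7 over all windows. Such matches describe the letters only.

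All 4 genes were highest in p75-sorted crest cells, Zic1 by far the most of them in its difference from the other origins. The members were chosen by these array levels, over the origins and both genotypes, so what follows is a description of them and carries no test. Values are deposited intensities on a linear scale, scaled by the authors to the same trimmed mean on every array. Each probe set has its own brightness, so levels are compared between arrays and not between probe sets.

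Zic1 was read by probe sets 1423477_at and 1439627_at. Probe set 1423477_at, the brighter, had intensities of 2071 in the p75 mutant and 2175 in the p75 control. It had 7.68 and 9.03 in the OFT mutant and control, 25.1 and 24.8 in the LM mutant and control, and 109 and 130 in the UM mutant and control. The p75 arrays were thus highest, followed by UM, LM and OFT, and no neighbours in that order overlapped. Probe set 1439627_at had 1386 in the p75 mutant and 1226 in the p75 control, and 62.7 and 74.9 in the UM mutant and control. On the OFT mutant and control it had 3.61 and 7.50, and on the LM mutant and control 10.4 and 0.927. It gave the same place to p75 and UM, while its OFT and LM values overlapped. An intensity of 19.4, the 40th percentile of all values, serves below as the mark of a low value; Zic1 lay above it on 6 of 8 arrays by the brighter probe set and on 4 by the other.

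Zic2 had 1 probe set, with intensities of 72.4 in the p75 mutant and 77.5 in the p75 control. It had 10.0 and 4.54 in the UM mutant and control, 1.12 and 1.47 in the OFT mutant and control, and 1.02 and 1.48 in the LM mutant and control. The order was p75, then UM, then OFT and LM, which overlapped. All 6 values outside p75 lay below 19.4, so the order among UM, OFT and LM rests on low values.

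Zic4, the neighbour of Zic1, had intensities of 152 in the p75 mutant and 98.3 in the p75 control by its brighter probe set, 1456417_at. The UM mutant and control had 16.8 and 11.2, the OFT mutant and control 3.86 and 14.6, and the LM mutant and control 11.0 and 3.76. The p75 arrays stood above the rest. The OFT values overlapped those of UM and of LM, and both LM values lay below both UM values. Probe set 1421539_at was dimmer, with 32.1 in the p75 mutant and 20.1 in the p75 control, against 0.805 to 4.23 on the other 6 arrays. Zic4 thus did not set UM apart from OFT, as Zic1 did.

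Zic5, the neighbour of Zic2, had 3 probe sets, which did not go the same way. Probe set 1456219_at, brightest by its mean log2(intensity + 32) over the arrays, had 72.4 in the p75 mutant and 93.3 in the p75 control, against 7.46 to 26.4 elsewhere. Probe set 1456140_at had 95.5 in the p75 mutant and 109 in the p75 control, against 6.01 to 24.2 elsewhere. By both, p75 stood above the other origins. Probe set 1425666_at had 0.631 in the p75 mutant and 18.9 in the p75 control. Its highest values were in UM, with 24.1 in the mutant and 22.7 in the control. It was the exception among the 8 probe sets, of which 7 had both p75 arrays above all 6 others; by gene, 27.9% of all genes tested had such a gap.

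**Figure D1:**
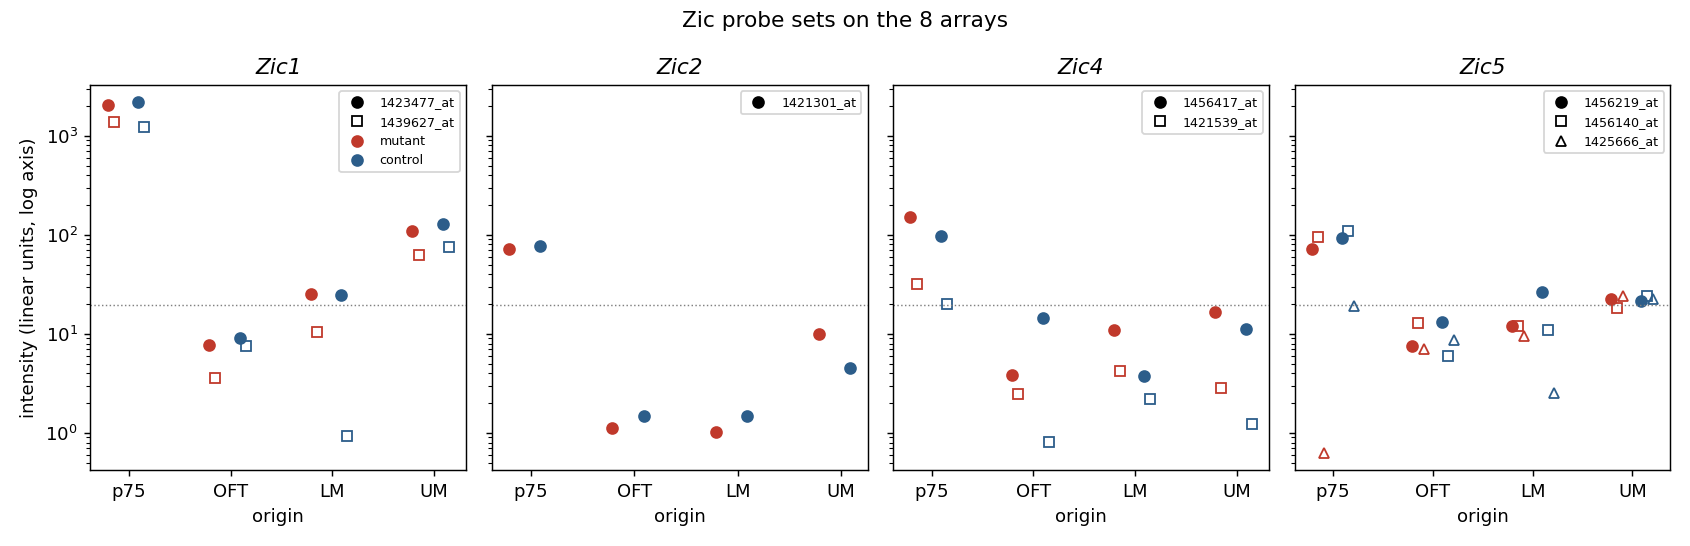
Intensity of each Zic probe set (log axis) on the mutant (red) and control (blue) array of each origin; filled circles are the brightest probe set of a gene, open symbols the others, and the dotted line is the low value mark of 19.4. The p75 arrays stand highest for 7 of 8 probe sets, and UM is second for both Zic1 probe sets.

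The arrays of p75-sorted cells also differed in array controls. For Gapdh, the 3′ control signal divided by the 5′ one gave 4.91 in the p75 mutant and 2.82 in the p75 control, and 0.700 to 0.986 elsewhere. For Actb it gave 1.65 in the p75 mutant and 1.57 in the p75 control, within the range of 1.42 to 1.94 found elsewhere. The part of these controls in the Zic levels was not tested. In such RNA, more cells of a type and more RNA per cell cannot be told apart.

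The model fitted across all 13543 genes held origin and genotype terms, on log2(intensity + 32), with the brightest probe set of each gene. Because 32 is added, the scale starts at 5 and folds of dim genes are understated. p75-sorted cells were set against the unsorted origins (LM, OFT and UM, equally weighted), which asks what marks sorted crest. Zic1 averaged 11.07 ± 0.05 in p75 (SD, n = 2 arrays) and 6.13 ± 0.88 in the others (SD, n = 6), a difference of 4.94 ± 0.14 log2 units (moderated SE). Zic4 averaged 7.27 ± 0.35 in p75 and 5.39 ± 0.19 in the others, a difference of 1.88 ± 0.17. Zic2 averaged 6.74 ± 0.05 in p75 and 5.13 ± 0.14 in the others, a difference of 1.61 ± 0.14. The means of Zic5 were 6.84 ± 0.19 in p75 and 5.60 ± 0.22 in the others, a difference of 1.23 ± 0.15. On this scale the folds were 30.7 for Zic1, 3.69 for Zic4, 3.04 for Zic2 and 2.35 for Zic5.

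All 4 members passed limma's threshold as higher in p75, where 28.2% of all genes tested did, and this contrast is among the values that chose them. Zic2 and Zic4 passed the filter on low values only through the p75 arrays, so they had to differ. The other probe sets, here and below, were read in a separate fit with the same terms over single probe sets. Their SE come from that fit. They gave 4.68 ± 0.16 for Zic1 (1439627_at), 0.75 ± 0.15 for Zic4 (1421539_at), and 1.55 ± 0.15 and -0.10 ± 0.18 for Zic5 (1456140_at and 1425666_at). The smallest and only negative of these belongs to the Zic5 probe set that was near 0 in the p75 mutant. At a pseudocount of 1 in place of 32 the differences were 6.11 for Zic1, 4.47 for Zic2, 3.64 for Zic4 and 2.31 for Zic5. The order of Zic2 and Zic4 thus turned with the pseudocount.

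Among the unsorted origins Zic1 differed and the others lay near or below the low value mark. Setting LM against UM asks what separates these origins. Zic1 averaged 5.83 ± 0.01 in LM and 7.24 ± 0.14 in UM (SD, n = 2 arrays each), a difference of -1.40 ± 0.17, or 2.65-fold lower in LM. Zic2 differed by -0.24 ± 0.17, Zic4 by -0.23 ± 0.21 and Zic5 by -0.08 ± 0.18. The other probe sets gave -1.43 ± 0.20 for Zic1 (1439627_at), 0.05 ± 0.18 for Zic4 (1421539_at), and -0.29 ± 0.19 and -0.55 ± 0.22 for Zic5 (1456140_at and 1425666_at). All but the dimmer Zic4 probe set thus gave a lower value in LM. By the brightest probe set the LM arrays lay below both UM arrays for Zic1, Zic2 and Zic4, a gap that 18.1% of all genes tested showed in that direction.

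The OFT contrast, with LM and UM averaged, asks what sets that origin apart. Zic1 averaged 5.33 ± 0.03 in OFT (SD, n = 2) and 6.53 ± 0.82 in LM and UM (SD, n = 4), a difference of -1.20 ± 0.15, or 2.30-fold lower in OFT. Zic2 differed by -0.12 ± 0.15, Zic4 by -0.05 ± 0.18 and Zic5 by -0.31 ± 0.16. By the brightest probe set the OFT values of Zic1 lay below all 4 LM and UM values, and those of Zic2, Zic4 and Zic5 overlapped them; 17.0% of all genes tested lay lower in OFT without overlap. By 1439627_at the difference of Zic1 was -0.71 ± 0.17, and its LM control value of 0.927 lay below both OFT values. Without the OFT mutant array the difference of Zic4 was 0.29, and without the OFT control array -0.40.

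**Figure D2:**
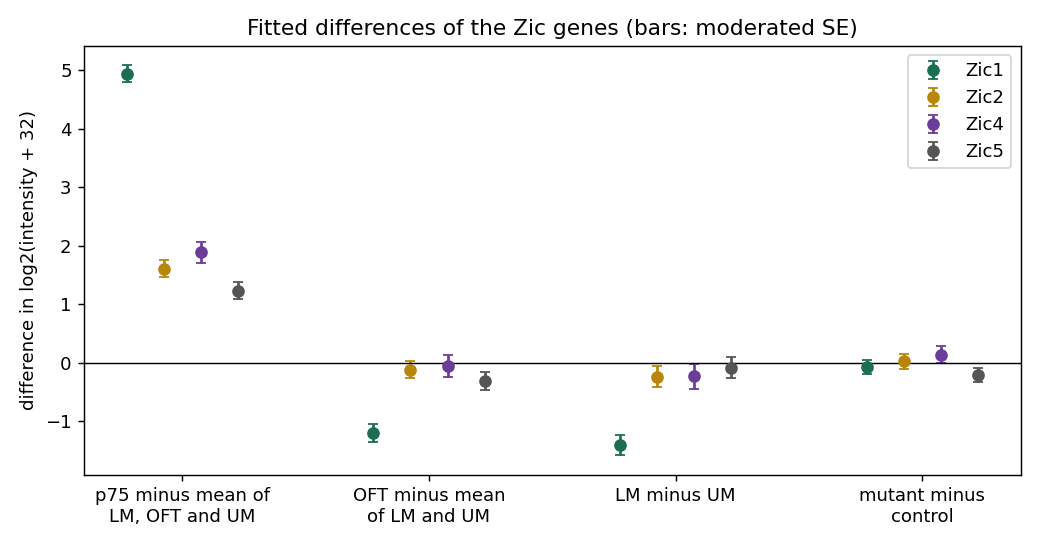
Fitted difference in log2(intensity + 32) of each Zic gene, brightest probe set, for the 3 contrasts of origins and for mutant minus control; bars are limma's moderated SE. All 4 genes lie above 0 in p75, Zic1 at 4.94, and Zic1 lies at -1.20 and -1.40 in the OFT and LM contrasts.

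The mutant and control arrays were then compared, which asks whether these genes differ between FAK genotypes. Over the 4 origins the mutant minus control difference was -0.08 ± 0.12 for Zic1, 0.02 ± 0.12 for Zic2, 0.14 ± 0.15 for Zic4 and -0.21 ± 0.13 for Zic5 (moderated SE, n = 4 pairs). In this main fit none exceeded 2 times its SE. Averaged over origins, Zic1 was 7.33 ± 2.59 in mutants and 7.41 ± 2.61 in controls (SD, n = 4 arrays each), a spread set by the origins. None of the 4 passed limma's threshold, and 0% of all genes tested did. Of the 13543 genes 412 had an unadjusted p under 0.05, and limma's smallest adjusted p was 0.71. The other probe set of Zic1 differed by 0.05 ± 0.14, so the sign for that gene depends on the probe set. At a pseudocount of 1 the Zic5 difference was -0.52 ± 0.21, which exceeded 2 times its SE. Those of Zic1, Zic2 and Zic4 did not. The statement for Zic5 thus depends on the pseudocount.

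Within single origins each difference rests on 1 array a genotype. Zic4 was higher in the p75 mutant by 0.50 with 1456417_at and by 0.30 with 1421539_at, intensities of 152 against 98.3 and 32.1 against 20.1. In the p75 pair 10.3% of all genes tested differed by as much as the first of these, in either direction. In the OFT pair Zic4 (1456417_at) went the other way, by -0.38, and it differed by 0.27 in LM and 0.18 in UM. The Zic4 difference over all origins was 0.02 without the p75 pair. Its chromosomal neighbour Zic1 differed by -0.07 in the same pair with one probe set and by 0.17 with the other.

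Zic5 differed by -0.26 in p75, -0.40 in LM, -0.19 in OFT and 0.03 in UM with its brightest probe set. Its probe set 1456140_at gave -0.14, 0.03, 0.24 and -0.16 for the same origins. Zic2 differed by -0.07 in p75, -0.02 in LM, -0.02 in OFT and 0.20 in UM. Of the 8 probe sets 1 had the same sign in all 4 origins, Zic4 1421539_at. In absolute size 95% of all genes tested differed by less than 0.61 in p75, 0.66 in LM, 0.55 in OFT and 0.57 in UM, and among the 8 probe sets only Zic5 1425666_at went past such a mark, at -0.64 in p75.

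**Figure D3:**
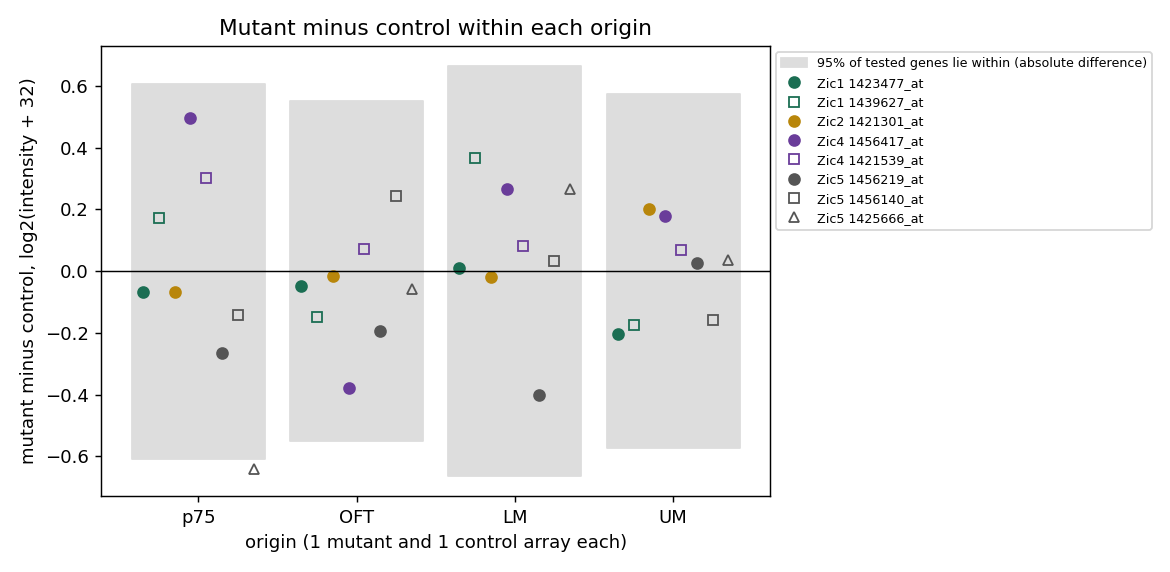
Mutant minus control difference in log2(intensity + 32) of each Zic probe set within each origin (1 array a genotype, so no error bars); grey bands hold 95% of all genes tested by absolute size. All but 1 of the points lie inside the bands, and Zic4 stands at 0.50 and 0.30 in p75 for its probe sets.

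Zic factors work beside hedgehog and Gli factors, in the roof plate and in the crest program, and genes of these lists were read in the same fit. In the neural crest list 5 of 11 genes rose in p75-sorted cells and 3 fell by limma, with a median of 0.16 against 0.07 over all genes tested, of which 28.2% rose and 18.9% fell. Sox10, a transcription factor of migrating crest and glia, had intensities of 1620 and 1512 in the p75 mutant and control and 25.3 to 57.5 elsewhere, and rose by 4.55 ± 0.16 (adjusted p = 5.9e-09). Ednrb, the endothelin receptor of crest precursors, rose by 3.68 ± 0.19 (adjusted p = 1.3e-07). Ngfr, which encodes p75 itself, had 1422 and 1043 in the p75 mutant and control and 47.0 to 149 elsewhere, so the sort is visible in its own gene. Sox9, a factor of crest and cartilage, fell by 1.23 (adjusted p = 3.8e-05 by limma). Snai1, a repressor active when crest leaves the neural tube, fell by 0.57, a call that was lost without the p75 control (adjusted p = 0.49) and without the OFT control (adjusted p = 0.058).

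Of 13 hedgehog and Gli genes tested, 4 rose and 3 fell in p75-sorted cells, shares near the 28.2% and 18.9% of all genes tested. Their median was -0.14 against 0.07 over all genes tested. Cdon, a hedgehog co-receptor, rose by 0.85 ± 0.14 (adjusted p = 0.00041), and Smo, the membrane transducer of the pathway, by 0.80 ± 0.14 (adjusted p = 0.00067). Shh, the ligand, fell by 1.59 (adjusted p = 1.4e-05 by limma). Hhip, which binds and inhibits the ligand, fell by 0.71, a call lost without the p75 control. Hhip had 20.0 and 12.8 in the p75 mutant and control, which overlapped 19.3 and 19.9 in UM. It had 36.9 and 23.8 in LM, and 99.4 and 148 in OFT. The Gli genes did not pass, with differences of -0.26 ± 0.15 for Gli1, -0.14 ± 0.14 for Gli2 and -0.35 ± 0.16 for Gli3. The Zic genes were chosen by these levels, so their signs are not set against those of the Gli genes. In LM against UM, where 0.738% of all genes tested were higher and 0.812% lower, 1 of 13 rose and 0 fell, Shh, by 0.99 ± 0.20 (adjusted p = 0.026), a call lost without the LM mutant (adjusted p = 0.15), the UM control (0.078) or the UM mutant (0.24).

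The roof plate and dorsal neural tube list holds genes of the region where Zic genes are known best. Of 14 genes with a probe set 10 were tested. In p75-sorted cells 2 rose and 3 fell, beside 28.2% and 18.9% of all genes tested, with a median of -0.10. Lmx1b, a LIM homeobox gene counted among those that rose, had 23.8 and 47.0 in the p75 mutant and control and 2.08 to 17.0 elsewhere. It passed the filter on low values only through the p75 arrays, so it had to differ. Pax7, a factor of dorsal neural tube and crest, rose by 0.47 ± 0.16 (adjusted p = 0.032, and 0.28 without the p75 control; it also missed without the p75 mutant, the LM control or the OFT mutant, at 0.097, 0.064 and 0.087). Rspo2, a Wnt agonist, fell by 1.67 (adjusted p = 4.0e-06 by limma). Msx1, a BMP-responsive homeobox gene, fell by 0.89 (adjusted p = 0.0014 by limma), a call lost without the p75 mutant. Msx1 had 191 and 275 in the p75 mutant and control, 722 and 768 in LM, and 1668 and 1211 in UM. In OFT it had 72.1 and 65.4, so its p75 values lay below LM and UM but above OFT. Wnt1, which marks the dorsal midline and the crest that forms there, did not pass the filter, with 26.7 and 11.0 in the p75 mutant and control and 2.71 to 17.7 elsewhere.

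In LM against UM 3 roof plate genes of 10 were lower, as Zic1 was, and 0 higher. Of all genes tested 0.812% were lower and 0.738% higher. Pax7 differed by -2.14 ± 0.20 (adjusted p = 0.00011) and Pax3, a partner of Zic1 in crest induction in the frog, by -1.65 ± 0.24 (adjusted p = 0.0033). Of the crest list 2 of 11 were lower, Tfap2b by 1.72 (adjusted p = 0.0031 by limma) and Tfap2a by 1.14 (adjusted p = 0.029), the second lost without the p75 mutant or p75 control (0.068), the LM control (0.33), the UM control (0.23) or the UM mutant (0.080). At a pseudocount of 1 the calls of Pax7, Pax3 and Tfap2b were lost too, at adjusted p of 0.061, 0.35 and 0.16. In p75, where Zic1 was highest, Pax3 differed by 0.40 and did not pass. It had 149 and 253 in the p75 mutant and control, below 568 and 646 in the UM mutant and control.

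In OFT against LM and UM, where Zic1 was also lower, 5 of 10 roof plate genes fell and 1 rose. Msx1 fell by 3.40 (adjusted p = 1.1e-07 by limma) and Pax3 by 3.19 (adjusted p = 6.4e-07). Rspo3, another Wnt agonist, rose by 0.90 ± 0.16 (adjusted p = 0.0024, and 0.069 without the OFT mutant). The crest list had 4 of 11 higher and 4 lower, and the hedgehog list 5 of 13 higher and 2 lower, with Shh up by 1.74 ± 0.17 (adjusted p = 2.2e-05). Background shares for this contrast were 11.3% higher and 3.89% lower.

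Of 10 tested partners and targets reported for Zic proteins, 3 were higher in p75-sorted cells, near the 28.2% of all genes tested, and 0 lower, with a median of -0.11. Foxd1, a forkhead gene, rose by 1.14 ± 0.15 (adjusted p = 8.5e-05), and Apoe, a lipid carrier gene, by 0.74 ± 0.17 (adjusted p = 0.0031, and 0.060 without the p75 control). In LM against UM 1 of 10 rose, Myf5, a muscle factor that Zic1 and Gli proteins activate in mouse somites, by 1.93 ± 0.18 (adjusted p = 0.00012), while Zic1 was lower in LM. All 5 skeletal muscle markers, Myf5 among them, were higher in LM by limma, where 0.738% of all genes tested were. Their summed intensities were 1445 and 967 in the LM mutant and control and 144 and 67.7 in the UM mutant and control. Their part in the Myf5 difference was not tested.

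The list of meninges and periocular mesenchyme, tissues with known Zic1 expression, had 9 of 13 genes higher in p75-sorted cells and 1 lower. Of all genes tested 28.2% were higher and 18.9% lower. The median of the list was 0.70 against 0.07 over all genes tested. Aldh1a2, which makes retinoic acid, rose by 2.27 ± 0.15 (adjusted p = 9.1e-07), and Dcn, the decorin gene, by 1.64 ± 0.17 (adjusted p = 1.9e-05). Col1a1, a collagen gene, fell by 0.64, with adjusted p = 0.022; it had 0.27 with the mean of its probe sets, and the call was lost without the p75 mutant (0.10), the p75 control (0.22) or the OFT control (0.050). In LM against UM 0 of 13 genes passed by limma. Of all genes tested 0.812% were lower and 0.738% higher, so 0 of 13 lay near that share. An unadjusted p under 0.05 was found for 1152 of all genes tested. At a pseudocount of 1 the p75 calls of Snai1, Pax7 and Col1a1 were lost, at adjusted p of 0.086, 0.078 and 0.099. Between mutant and control 0 genes of any of these lists passed by limma; the 2 genes of each list with the smallest p lay between -0.49 ± 0.18 for Col1a1 and 0.47 ± 0.13 for Myf5.

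**Figure D4:**
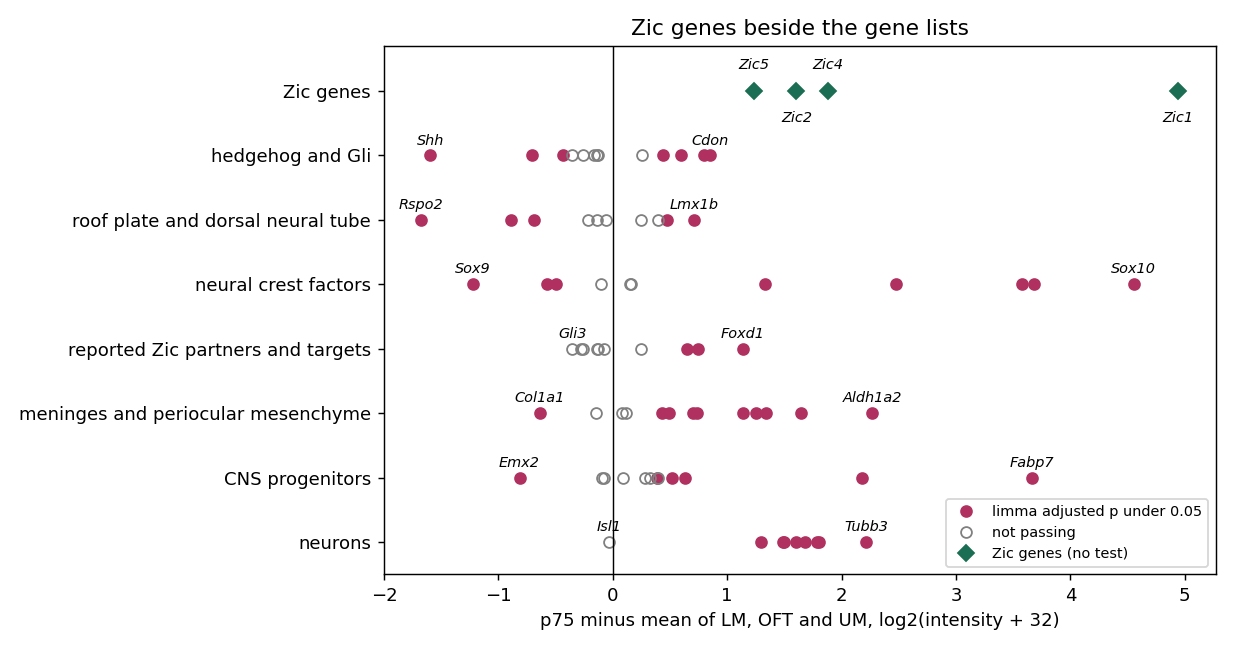
Difference in log2(intensity + 32), p75 minus the 3 unsorted origins averaged, for the 4 Zic genes (diamonds, no test) and for each tested gene of 7 lists (filled, limma adjusted p under 0.05; open, not passing), with the highest and lowest gene of each list named. Zic1 lies at 4.94 and Sox10 at 4.55. The Gli genes lie below 0 without passing the threshold, and the Zic genes, chosen by these levels, are not set against them.

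Some markers of neural tissue and of skeletal muscle were highest on the p75 arrays, as the Zic genes were, and others were not. Of 13 markers of central nervous system progenitors with a probe set, 11 lay above 19.4 on both p75 arrays. Their summed intensity was 3715 in the p75 mutant and 3737 in the p75 control, against 620 to 1985 on the other arrays. Most of it was Fabp7, a lipid binding gene also of glia, with 2056 and 2494 in the p75 mutant and control. By limma 5 of 12 tested genes of this list were higher in p75 and 1 was lower, beside 28.2% and 18.9% of all genes tested. Sox2, a factor of neural progenitors, had 548 and 582 in the p75 mutant and control, against 178 to 788 on the other arrays, and Nes, the nestin gene, had 830 and 286, against 6.73 to 193. Pax6, a factor of forebrain and eye, had 38.4 and 32.3 in the p75 mutant and control, and Otx2, a factor of forebrain and midbrain, 32.2 and 66.2, with up to 70.0 and 194 on the UM arrays. Sox1, a marker of neural progenitors, lay below 19.4 on all 8 arrays, at 11.1 and 19.3 in the p75 mutant and control and 0.447 to 2.58 elsewhere. Neuron markers summed to 3869 and 6400 in the p75 mutant and control, and to 689 to 5296 on the other arrays. Of the 5296 in the OFT control, Nefl made up 1184 and Nefm 1515. By limma 8 of 9 neuron markers were higher in p75 and 0 lower, with a median of 1.60, beside the same shares of all genes tested. Markers of glia and sorted crest summed to 5480 and 4392 in the p75 mutant and control, against 290 to 706 on the other arrays. Of 5 skeletal muscle markers 4 were higher in p75 by limma, where 28.2% of all genes tested were, with a median of 1.41. Their sums were 3508 and 2127 in the p75 mutant and control, below 7098 and 6083 in the OFT mutant and control. Of those OFT sums Actc1, also counted as a heart muscle marker, made up 6756 and 5858. Myod1, a muscle determination factor, had 287 and 162 in the p75 mutant and control, against 11.7 to 87.3 on the other arrays, and Myog, which acts after it, had 693 and 316, against 6.92 to 241. The part of any of these cells in the Zic levels was not tested.

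The UM level of Zic1 was also accompanied by neural markers. Progenitor markers summed to 686 and 620 in the LM mutant and control and to 1700 and 1985 in the UM mutant and control. Lhx2, a homeobox gene of forebrain and eye, had 17.5 and 20.4 in the LM mutant and control, against 221 and 189 in the UM mutant and control. Upper jaw markers summed to 1667 and 1948 in LM and 4462 and 4541 in UM, where Alx1 alone had 2588 and 2702. By limma 2 of 4 were lower in LM, beside 0.812% of all genes tested. Lhx8 went the other way, with 866 and 1101 in LM against 709 and 805 in UM. Surface epithelium markers summed to 1158 and 1060 in LM against 1847 and 1552 in UM. Of those UM sums Epcam made up 955 and 693, and 1 of 5 markers was lower in LM by limma. Their part in the Zic1 difference was not tested.

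As to patterns over the 8 arrays, the members resembled each other. Pearson's r on log2(intensity + 32) was 0.98 for Zic1 with Zic2, 0.95 for Zic1 with Zic4, 0.96 for Zic1 with Zic5, 0.97 for Zic2 with Zic4, 0.96 for Zic2 with Zic5 and 0.91 for Zic4 with Zic5 (n = 8 arrays). These arrays share the gap between p75 and the rest, and without the p75 pair (n = 6) the same values were 0.82, 0.47, 0.64, 0.62, 0.51 and 0.13. Zic1 with Zic4 and Zic2 with Zic5, the chromosomal neighbours, stood below Zic1 with Zic2. The members were chosen by these levels and most lay low outside p75, so no conclusion about neighbours is drawn.

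The genes most like each member were taken among 813 tested genes that ranged over at least 2 log2 units. For Zic1 they were Miat, a long noncoding RNA, Cdh6, a cadherin of crest and dorsal neural tube, Arg1, an arginase, Vtn, the vitronectin gene, and Col26a1, a collagen gene, with r of 0.97 to 0.99. Miat had intensities of 1157 and 1091 in the p75 mutant and control, 85.5 and 97.5 in OFT, 87.7 and 73.5 in LM, and 179 and 212 in UM. It shared with Zic1 the second place of UM. Cdh6 had 1625 and 1540 in p75, 140 and 183 in OFT, 257 and 334 in LM, and 487 and 493 in UM, the same order of origins as Zic1.

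For Zic2 the list was Vtn, Pltp, a phospholipid transfer gene, Foxd3, a factor of early crest, Oc90, an otolith matrix gene, and Dusp4, a phosphatase of MAP kinases, with r of 0.985 to 0.996. For Zic4 it was Mmd2, Prss12, a brain protease gene, Ap3m2, a vesicle coat gene, Itsn1, an endocytic scaffold gene, and Pltp, with r of 0.98 to 0.99. Prss12 had 1118 in the p75 mutant and 780 in the p75 control, the same direction as Zic4, though the arrays that picked it include this pair. For Zic5 it was Psat1, an enzyme of serine synthesis, Celf5, an RNA binding gene, Gadd45g, a growth arrest gene, Vtn and Mir124-2hg, the host of a neuronal miRNA, with r of 0.97 to 0.98. Vtn stood in the lists of Zic1, Zic2 and Zic5. At a pseudocount of 1 the list kept 4 of 5 genes for Zic1, 2 for Zic2, 1 for Zic4 and 2 for Zic5, and without the p75 pair it kept 0 of 5 for each member.

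**Figure D5:**
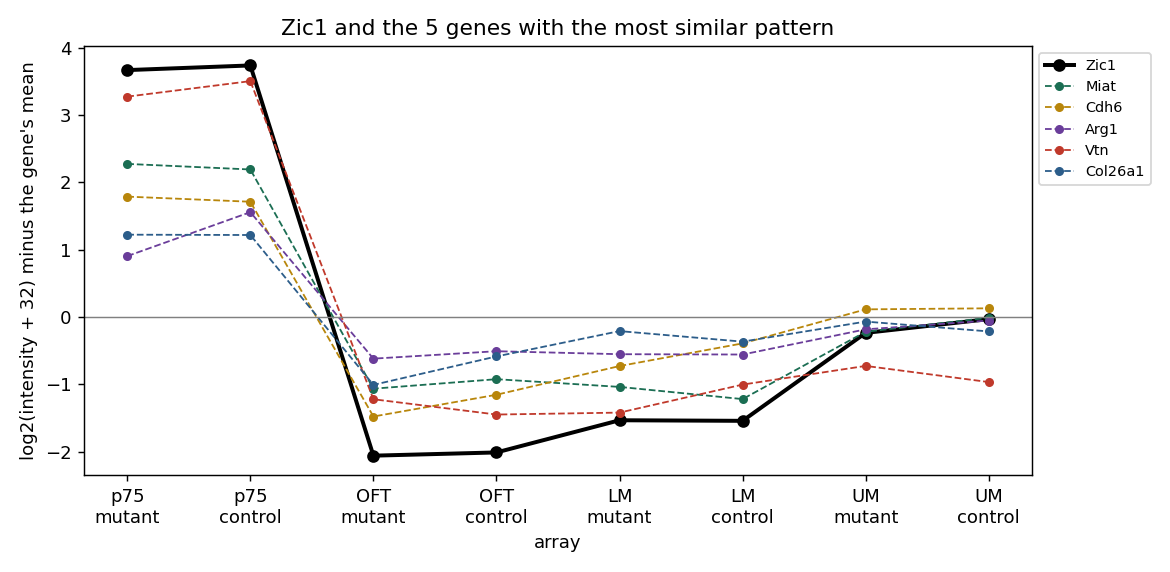
Zic1 (black) and the 5 genes with the highest Pearson correlation to it over the 8 arrays, as log2(intensity + 32) minus each gene's mean. All peak on the p75 arrays, and the UM arrays come next by their mean.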

How the data were processed

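The authors deposited 1 intensity on a linear scale for each of 45101 probe sets on each of 8 arrays; their software and genome build are not given in the sources used here. From the values, the mean between the 2nd and 98th percentiles was 150.0 on every array, and median log2(intensity + 32) values were 5.95 to 6.08, so no further scaling was applied. By the platform annotation 34945 probe sets name 1 gene, 932 name several (left out) and 9211 are unlisted; updating by Entrez identifier to GRCm38.p6 changed 0 symbols. The brightest probe set, by mean log2(intensity + 32), stood for each of 18193 genes, and 13543 with at least 2 arrays above an intensity of 19.4 were tested.

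limma 3.58.1 (R 4.3.3; lmFit, eBayes) was fitted with origin and genotype terms, 3 residual and 9.18 prior degrees of freedom, and p-values were adjusted by Benjamini-Hochberg over all genes tested at a threshold of 0.05. Control and mutant arrays paired by origin label in the genotype contrast and served as replicates of an origin otherwise; nothing says what separates them beyond genotype, and p-values measure only the spread between arrays. The script was tested on simulated data. The members' other probe sets were fitted apart, with the same terms, over all member probe sets and single probe sets past the same filter. The members and lists were chosen with earlier results of these data known. Named list genes were, per list, the 2 highest and 2 lowest among those past the threshold in each contrast of origins, from which the text takes examples, and the 2 with the smallest p between genotypes; like genes were the 5 with the highest correlation. Ngfr, Wnt1, the Gli genes and cell markers were added by role after their values were seen. Alternatives were the pseudocount, quantile normalization, no filter, the mean of probe sets, an intensity trend, and leaving out arrays. Promoter sequences are from RefSeq (GRCm38.p6), with 3 of 4 members matched. The number of arrays limits the precision.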

Additional observations from a re-analysis of the deposited data

Results flagged for a closer look

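The mutant minus control difference of Zic4 by its dimmer probe set, 1421539_at, was 0.30 in log2(intensity + 32) in p75-sorted cells and 0.07 to 0.08 in the other 3 origins. This probe set lay above 19.4 on the p75 arrays only, and adding 32 holds differences between values as low as its 0.805 to 4.23 elsewhere near 0. As plain ratios of intensities, mutant over control, it had 1.60 in p75, 1.91 in LM, 3.05 in OFT and 2.29 in UM, so p75 did not stand apart on that scale. About 1 in 20 sets of values is picked out in this way by chance.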

How the results depend on the processing

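At a pseudocount of 1 the genes called were 1003 for OFT, against 2060, and 64 for LM against UM, against 210. At that pseudocount the Zic differences for p75 were 6.11 (Zic1), 4.47 (Zic2), 3.64 (Zic4) and 2.31 (Zic5); for LM minus UM -2.20, -1.80 and -0.97 (Zic1, Zic2, Zic4); for OFT -2.58, -0.87, -0.27 and -0.92 in gene order; and -0.52 for Zic5 between mutant and control. At a pseudocount of 64 they were 4.37, 1.05, 1.34 and 0.86 for p75 in gene order, and for Zic1 -1.04 in LM minus UM and -0.82 in OFT. With the mean of probe sets Zic4 had 1.32 and Zic5 0.89 in p75, Zic5 -0.31 in LM minus UM, and Zic1 -0.95 in OFT; Col1a1 turned to 0.27 in p75. Leaving out 1 array gave 0 to 1 genes called between genotypes, 111 (without the UM control) to 227 for LM against UM, 631 (without the OFT control) to 2154 for OFT, and 3238 (without the p75 mutant) to 6428 for p75. The LM against UM count was also 130 without the LM control and 117 without the UM mutant, and the OFT count 1032 without the OFT mutant. Zic4 ran from -0.40 to 0.29 in OFT and from 1.65 to 2.12 in p75. Quantile normalization moved no Zic difference by more than the residual SD. With no replicate block, that is with the origin term left out, 0 genes were called between genotypes. No paired analysis by replicate number was possible because each group holds replicate 1 only. Leaving out the p75 pair, chosen after seeing the data, gave 1887 genes for OFT and 161 for LM against UM. Low intensities limit what can be said of Zic2, Zic4 and Zic5 outside p75. Other causes of these shifts were not tested.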
